A study of Mus musculus with 62 samples.

Results

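Zap70, the tyrosine kinase that binds the activated T cell receptor, was among the more abundant transcripts of the caput epididymis, where none of the receptor chain genes exceeded 3.1 TPM. The 10 genes described here are Zap70, the receptor chains Cd3d, Cd3e, Cd3g and Cd247, the coreceptors Cd4, Cd8a and Cd8b1, the kinase Lck and the adhesion receptor Cd2. They were picked by name from the 23845 genes of the deposited table, because of their levels across tissues and in Rag2 knockout mice. Those levels are therefore given as a description, without a test. The members were tested in germ-free, F1 and recolonized mice. In Rag2-/- mice tests are given only for genes other than the members, apart from counts of members called under alternative settings.

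The libraries were made from polyadenylated RNA of the testis and of the caput and cauda of the epididymis, from male C57BL/6 mice aged 8 to 14 weeks, 62 in all, each of tissue from 1 animal. Germ-free (GF) mice were reared without microbes in isolators (4 testes, 6 caput, 6 cauda). Rag2 knockout (Rag2-/-) mice lack mature T and B cells (2 caput, 3 cauda). F1 mice were wild-type sons of GF fathers and SPF mothers, bred in a conventional facility (3 caput, 3 cauda). The controls were specific pathogen free (SPF) wild-type mice (3 testes, 4 caput, 4 cauda). Recolonized GF mice, obtained from another laboratory (3 libraries of each tissue), were of GF origin but reared and bred for generations in conventional housing. They were set against a second set of SPF mice (5 of each tissue). One swollen cauda, GF replicate 4, was left out of every comparison outside the alternative fits and is described on its own. Values are TPM, relative transcript abundances that are scaled for transcript length and to a fixed total per library. The table keeps no read counts, so the depth is unknown and the spread between animals is the only measure of precision.

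T cells recognise antigen through a receptor that carries the CD3 delta, epsilon and gamma chains and the zeta chain, which Cd247 encodes. Lck, brought in by CD4 or CD8, phosphorylates short motifs in the tails of these chains, ZAP-70 docks on the phosphorylated motifs, and it then phosphorylates the scaffolds LAT and SLP-76 (Lcp2), which recruit phospholipase C gamma 1 (Plcg1). ZAP-70 is known from T cells and natural killer (NK) cells, while its nearest relative, Syk, acts in B cells and myeloid cells. RAG2 cuts the segments from which receptor genes are assembled. Without it neither T nor B cells mature, while NK cells are made. The epithelium of the caput secretes proteins into the fluid in which sperm mature, and the cauda stores sperm.

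Zap70 lies on mouse chromosome 1, at 36761798 to 36782821 of GRCm38.p6, the assembly whose coordinates mm10 shares. The table sums 4 RefSeq transcripts for it, so their starts cannot be told apart in these values. Among the members, 7 had promoter windows in the RefSeq set, and 4 windows of 250 bases before a transcript start are shown because they set the promoters of 2 transcripts abundant in caput only (Zap70 and Klrb1c, an NK receptor gene described further on) beside those of 2 T cell members that did not have that pattern (Cd3g and Lck). They run 5′ to 3′ on the strand of the gene. Zap70, at the first of its 3 annotated starts, is at chr1:36761548-36761797 on the plus strand, Klrb1c at chr6:128788642-128788891, Cd3g at chr9:44980432-44980681 and Lck, at the more distal of its 2 starts, at chr4:129573642-129573891, all 3 on the minus strand. Capitals mark matches, on either strand, to the cyclic AMP response element TGACGTCA, the ETS core GGAAGT, the Runx core TGTGGT or the androgen receptor core TGTTCT.
Zap70: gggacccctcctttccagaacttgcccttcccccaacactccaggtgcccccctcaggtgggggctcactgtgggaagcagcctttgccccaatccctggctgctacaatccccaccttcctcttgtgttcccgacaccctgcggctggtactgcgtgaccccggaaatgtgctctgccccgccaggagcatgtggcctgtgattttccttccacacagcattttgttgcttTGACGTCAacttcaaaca
Klrb1c: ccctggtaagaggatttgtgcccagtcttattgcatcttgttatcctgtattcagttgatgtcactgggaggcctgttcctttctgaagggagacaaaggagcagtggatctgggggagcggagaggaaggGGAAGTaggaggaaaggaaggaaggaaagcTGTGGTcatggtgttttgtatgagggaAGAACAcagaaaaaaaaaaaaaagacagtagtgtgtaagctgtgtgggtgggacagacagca
Cd3g: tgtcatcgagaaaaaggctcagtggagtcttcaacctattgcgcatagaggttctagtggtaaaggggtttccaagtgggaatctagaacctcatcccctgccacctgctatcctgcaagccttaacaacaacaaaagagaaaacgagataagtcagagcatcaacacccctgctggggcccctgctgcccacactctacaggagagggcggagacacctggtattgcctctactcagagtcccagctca
Lck: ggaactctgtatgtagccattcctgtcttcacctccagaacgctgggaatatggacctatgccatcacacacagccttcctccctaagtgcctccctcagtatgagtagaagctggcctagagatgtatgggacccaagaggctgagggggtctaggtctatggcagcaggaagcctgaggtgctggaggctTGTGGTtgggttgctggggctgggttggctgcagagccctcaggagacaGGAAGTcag
This window of Zap70 held 1 match to TGACGTCA, close before the start, and none to the other 3 motifs. Of the windows at its other starts, not shown, chr1:36764265-36764514 held 1 match each to the ETS and Runx cores, and the third held none of the motifs, and the other window of Lck held 1 match to the ETS core. That of Klrb1c held 1 match each to the ETS core, the Runx core and the androgen receptor core (the last read on the opposite strand), that of Lck 1 each to the ETS and Runx cores, and that of Cd3g none. Among all 32851 windows of this length, 1.55% held the cyclic AMP response element, 19.7% the ETS core, 14.0% the Runx core and 16.1% the androgen receptor core. The motifs were chosen after these sequences had been read, and a match describes the letters only.

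Zap70 was abundant in the caput of every group and averaged at most 1.79 TPM in any group of cauda or testis. In caput it averaged 107 ± 5.44 TPM in Rag2-/- (SD, n = 2), 94.8 ± 4.90 TPM in GF (SD, n = 6), 77.7 ± 16.8 TPM in recolonized GF (SD, n = 3), 72.0 ± 9.40 TPM in SPF (SD, n = 4), 48.9 ± 7.65 TPM in the second SPF set (SD, n = 5) and 45.8 ± 15.4 TPM in F1 (SD, n = 3). At these levels it ranked 1090th of all genes in Rag2-/- caput and 1568th in SPF caput. The lowest caput library, F1 replicate 1, had 28.49 TPM, and no library of another tissue exceeded 2.42 TPM. In that order of 16 group means, the ranges of recolonized GF overlapped those of GF and of SPF, the second SPF set overlapped F1, and the other steps among caput groups and the step from caput to the rest showed no overlap. The 10 groups of testis and cauda ran from 1.79 ± 0.607 TPM in recolonized testis (SD, n = 3) to 0.170 ± 0.294 TPM in Rag2-/- cauda (SD, n = 3), each overlapping the next. The caput of SPF mice had 109-fold the Zap70 TPM of the cauda, and that of the second SPF set 144-fold.

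**Figure D1:**
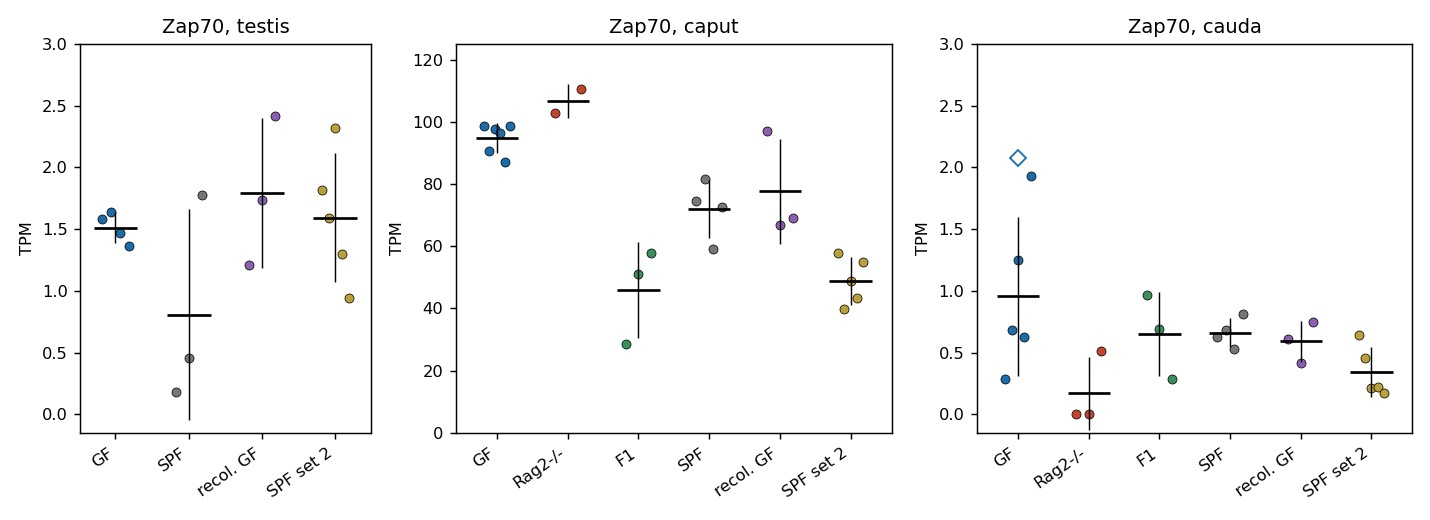
Zap70 TPM in each library (points) by group in testis, caput and cauda, with the mean (horizontal bar) and SD (vertical line). The open diamond is GF cauda replicate 4, which enters no mean. The caput panel has its own, longer axis. All caput libraries lie at or above 28.49 TPM, and all others at or below 2.42 TPM.

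The other 9 members showed no such step between regions. Lck was their most abundant transcript in cauda, with a lowest value of 0.97, a median of 2.70 and a highest of 5.04 TPM over 23 cauda libraries, and 0.69, 1.57 and 3.23 TPM over 23 caput libraries. Cd3e, the chain every form of the receptor contains, was present in all 23 caput libraries, at 1.3 to 3.1 TPM. Cd3d had a median of 0.280 TPM in caput and was at 0 in 5 of these libraries, and Cd3g had a median of 0.390 TPM. Cd247 (median 0.440 TPM), Cd4 (0.320 TPM), Cd8a (0.10 TPM) and Cd8b1 (0.110 TPM) were as low, and Cd2 had a median of 0.880 TPM. Zap70 thus made up between 76.0 and 95.6% of the summed TPM of the 10 genes in every caput library, and between 0 and 14.1% in the cauda libraries. Where a few cells of a type would give values as low as these, fewer cells and less RNA per cell cannot be told apart in RNA of whole tissue.

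In the testis Cd3d, Cd3e (0.49 to 2.06 TPM) and Cd247 (0.16 to 1.17 TPM) were above 0 in all 15 libraries, while Cd3g and Cd8a were mostly at 0. Cd3d, with 0.94 to 3.60 TPM, was above 0 in all 15 testis libraries, and Cd3g, whose product pairs with CD3 epsilon in the same receptor, was at 0 in 11 of them, including all 5 of the second SPF set. Cd8b1 reached 0.50 to 3.07 TPM in the 15 libraries, while Cd8a, the chain with which it forms the CD8 coreceptor, was at 0 in 11 and at most 0.17 TPM in the others. Lck lay between 0.85 and 4.10 TPM and Zap70 between 0.18 and 2.42 TPM. Only recolonized GF replicate 2 had both Cd3g and Cd8a above 0, at 0.18 and 0.05 TPM.

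Whether lymphocytes were the source of these transcripts was asked with the Rag2-/- mice. Rag2 itself was at 0 TPM in all caput and cauda libraries of every group, so it gives no check of the knockout label. Zap70 was at 102.77 and 110.46 TPM in the 2 Rag2-/- caput libraries, against 74.51, 81.51, 59.05 and 72.74 TPM in SPF caput. Both knockout values were above every SPF value, and the difference of the mean log2(TPM + 1) was 0.57. Cd3d was at 0 in both, against 0.25, 0.28, 0 and 1.07 TPM in SPF caput, and Cd8b1 was at 0 in both, against 0.23, 0.13, 0 and 0.25 TPM. Cd3g had 0.14 and 0.08 TPM in Rag2-/- caput, against 0.22, 0.28, 0.53 and 0.18 TPM in SPF caput. In caput, Zap70 alone of the 10 members was above SPF without overlap (14.3% of all genes with a value above 0 were) and Cd3g alone below (8.84% were).

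Other T cell members were above 0 in both knockout caput libraries. Cd3e had 2.12 and 1.98 TPM in Rag2-/- caput, against 1.45, 1.81, 2.16 and 2.83 TPM in SPF caput, so that the groups overlapped and the means were 2.05 and 2.06 TPM. Lck had 1.22 and 1.5 TPM, against 1.48, 1.57, 1.81 and 1.98 TPM, and Cd2 had 0.81 and 0.90 TPM, against 0.89, 0.58, 1.86 and 0.64 TPM. The knockout and SPF ranges of these 3 transcripts overlapped, as did those of Cd3d and Cd8b1, for which SPF replicate 3 was also at 0. Cd247 had 0.21 and 0.61 TPM in Rag2-/- caput, against 0.15 to 0.44 TPM in SPF caput. Cd4 had 0.23 and 0.19 TPM, against 0.20 to 0.47 TPM, and Cd8a 0 and 0.02 TPM, against 0 to 0.08 TPM, all with overlap.

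In the cauda 6 of the 10 members were below SPF without overlap in Rag2-/- mice, and Cd247, Cd8b1, Lck and Cd2 overlapped. Cd3d was at 0 in all 3 Rag2-/- libraries, against 0.90, 0.62, 0.13 and 0.94 TPM in SPF. Cd3g had 0.26, 0 and 0 TPM in Rag2-/- cauda, against 0.71, 0.93, 1.07 and 1.42 TPM in SPF cauda. Cd4 had 0.20, 0 and 0.18 TPM, against 0.78, 0.30, 0.69 and 0.95 TPM. Cd3e, Cd8a and Zap70 made up the 6, where 7.54% of all genes lay below, and no member lay above, where 2.99% did. Zap70 was at 0, 0 and 0.51 TPM in Rag2-/- cauda, against 0.63, 0.68, 0.53 and 0.81 TPM in SPF cauda. Rag2-/- cauda replicate 2 had the fewest genes above 0 TPM of any library, 13105, and without it 7 members lay below SPF, Cd247 being the seventh.

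Lck was again retained, with 2.06, 2.48 and 2.39 TPM in Rag2-/- cauda, against 3.08, 2.70, 0.97 and 4.35 TPM in SPF cauda. Cd247 had 0, 2.19 and 0.10 TPM, the high value being that of replicate 2, against 0.63, 0.91, 0.51 and 0.82 TPM in SPF cauda. The same libraries had more sperm RNA: the summed TPM of 6 spermatid and sperm genes ran from 1645 to 3114 in Rag2-/- cauda, against 31.3 to 1442 in SPF cauda, without overlap. Its part in the lower member values was not tested.

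**Figure D2:**
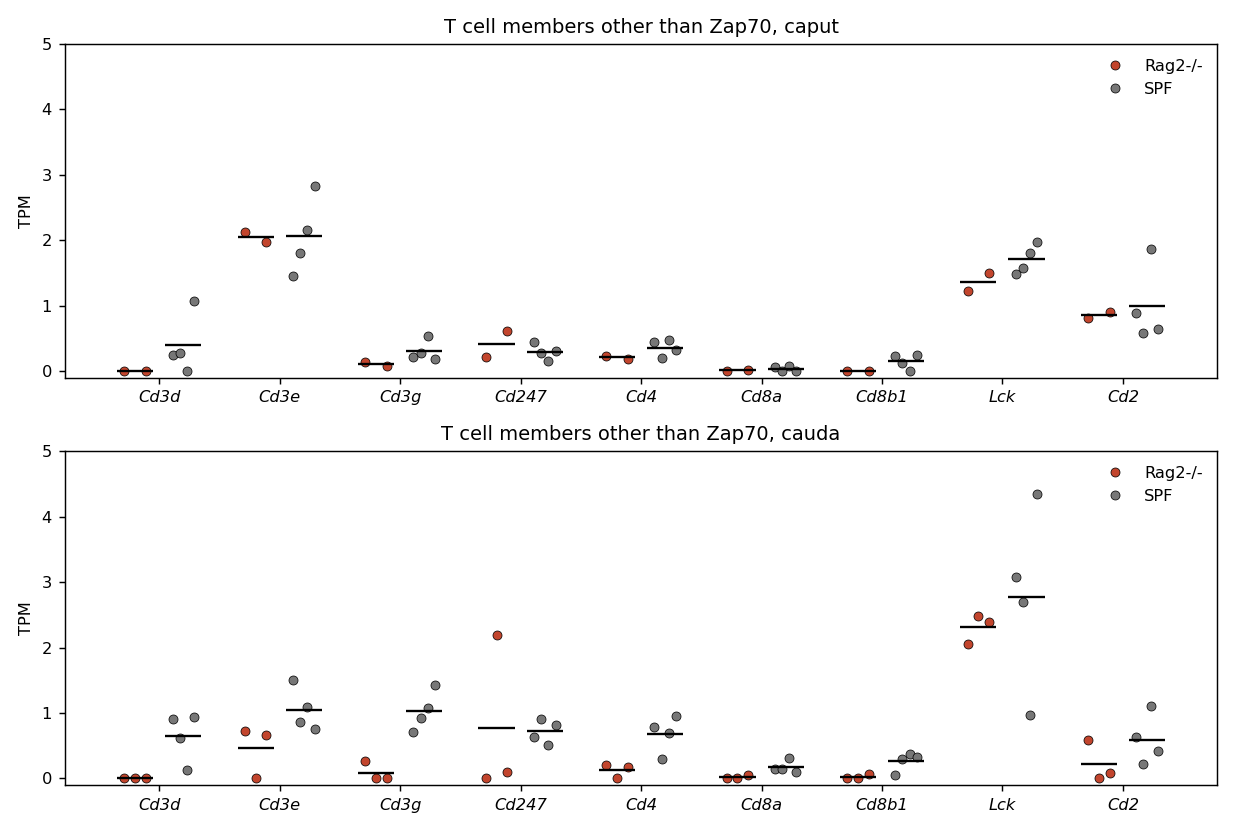
TPM of the 9 members other than Zap70 in Rag2-/- and SPF libraries (points) with the group mean (bar), in caput (top) and cauda (bottom). Cd3d is at 0 in all 5 Rag2-/- libraries, while Cd3e in caput and Lck in both regions overlap SPF.

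Most NK and B cell markers were low in the caput of both genotypes. NK cells are made without RAG2 and use ZAP-70. Ncr1, the activating receptor that defines them, had 0.05 and 0.10 TPM in Rag2-/- caput and at most 0.13 TPM in SPF caput. The 11 NK genes other than Klrb1c summed to 3.68 and 4.37 TPM in the Rag2-/- caput libraries, against 1.33 to 3.95 TPM in SPF caput, and none of the 11 averaged above 1.17 TPM in Rag2-/- caput. The 13 B cell genes summed to 1.63 and 2.01 TPM in Rag2-/- caput, against 1.47 to 2.84 TPM in SPF caput. Ptprc, which encodes CD45 of all white blood cells, had 0.38 and 0.51 TPM, against 0.12 to 0.37 TPM. The 15 T cell genes outside the members summed to 107 and 117.5 TPM in Rag2-/- caput, against 85.1 to 98.5 TPM in SPF caput, nearly all of it from Lat, Tcf7 and Lef1, which are described further on. The 14 genes of epididymal epithelium summed to at least 57883 TPM in every caput library. RNA of whole tissue does not show which cell made Zap70, so an epithelial source was not tested.

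Klrb1c, which encodes the NK receptor NK1.1, shared the regional pattern of Zap70. It had 271 and 327 TPM in Rag2-/- caput, against 213 to 279 TPM in SPF caput, where the groups overlapped, and averaged 0.0833 TPM in Rag2-/- cauda, against 0.260 TPM in SPF cauda. The neighbouring gene Klrb1a, of the same family, averaged 56.1 ± 1.31 TPM in Rag2-/- caput (SD, n = 2) and 49.0 ± 3.46 TPM in SPF caput (SD, n = 4). These genes are close in sequence, and how reads were divided between them is uncertain. As a marker of NK cells Klrb1c thus stood apart from the other 11 genes of its list.

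Of 26 partners in receptor signalling, Lat and Plcg1 were also concentrated in the caput. Lat, the scaffold that ZAP-70 phosphorylates, averaged 33.6 ± 2.41 TPM in Rag2-/- caput (SD, n = 2) and 26.4 ± 3.39 TPM in SPF caput (SD, n = 4). In cauda it averaged 0.210 TPM in Rag2-/- and 0.795 TPM in SPF. Plcg1, which docks on LAT, averaged 84.8 ± 23.0 TPM in Rag2-/- caput (SD, n = 2) and 57.3 ± 11.9 TPM in SPF caput (SD, n = 4), against 6.12 TPM in SPF cauda. Of the 12 partners that reached 1 TPM in SPF caput or cauda, these 2 were at least 8-fold higher in caput on the log2(TPM + 1) scale, as 1.93% of all such genes were. Neither passed the test between Rag2-/- and SPF caput (limma, adjusted p = 0.252 for Lat and 0.235 for Plcg1), although Lat was above SPF without overlap. limma called 0 of the 11 partners tested there, against 0.159% of all genes. An unadjusted p below 0.05 was found for 4 of them and for 2178 of all 11915 genes tested.

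Other partners named here were either shared by both regions or scarce. Csk, which restrains Lck, averaged 56.9 TPM in SPF caput and 61.8 TPM in SPF cauda. Ptpn22, a phosphatase that acts on Lck and ZAP-70, averaged 21.6 TPM in both, and Skap1, an adaptor of T cells, 20.06 and 20.01 TPM. Lcp2, for SLP-76, the other scaffold that ZAP-70 phosphorylates, averaged 0.540 TPM in SPF caput. Syk, the nearest relative of Zap70, averaged 3.43 ± 0.573 TPM in Rag2-/- caput (SD, n = 2) and 3.21 ± 1.25 TPM in SPF caput (SD, n = 4), and 11.3 ± 6.30 TPM in the caput of the second SPF set (SD, n = 5). In the cauda of these groups Syk was lower, at 0.660, 0.700 and 0.476 TPM. Recolonized GF had 14.3 TPM in caput and 0.443 TPM in cauda. The caput and cauda means were 2.66 and 2.01 TPM in F1, and 5.02 and 7.04 TPM in GF. Of 15 further T cell genes, 3 reached 1 TPM in SPF caput or cauda: Lat and the transcription factor genes Tcf7 and Lef1, which averaged 26.6 and 35.3 TPM in SPF caput, against 4.38 and 6.63 TPM in SPF cauda.

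**Figure D3:**
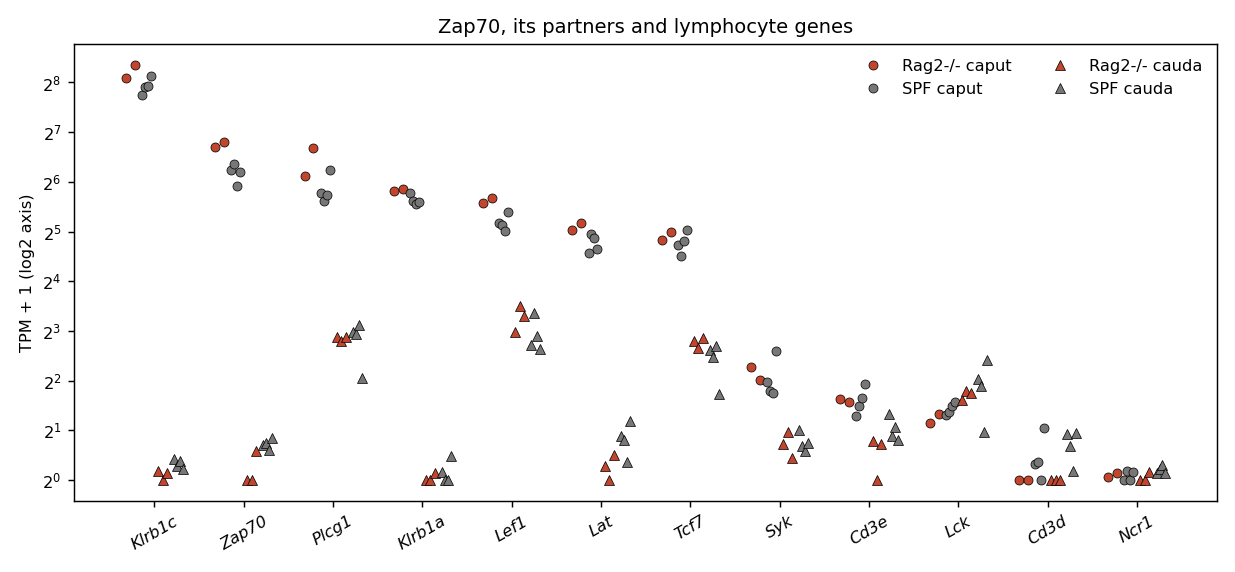
TPM + 1 on a log2 axis for Zap70, Klrb1c, Klrb1a, signalling partners and lymphocyte genes in each library of Rag2-/- and SPF caput (circles) and cauda (triangles). Klrb1c, Zap70, Plcg1, Klrb1a, Lef1, Lat and Tcf7 are higher in caput than in cauda in both genotypes, while Cd3e, Lck, Cd3d and Ncr1 stay below 5 TPM.

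The genes most like Zap70 over the 16 group means were genes of the caput. Ranked by Pearson r of mean log2(TPM + 1) among 17047 genes, they were Krt23 (r = 0.9945), Emid1, Xkr7, Lingo1, Pabpc1l, Sh2d5, Rab26, Lpin3, P4ha2 and Gpr84 (r = 0.9909). Krt23, a keratin of epithelia, averaged 158 ± 12.3 TPM in SPF caput (SD, n = 4) and 0.133 TPM in SPF cauda, and Rab26, a GTPase of secretory vesicles, 178 ± 16.3 TPM in SPF caput (SD, n = 4) and 0.155 TPM in SPF cauda. The points share libraries and a large step between caput and the rest, so r is high for any gene of that kind. Klrb1c had r = 0.988, Rnase10, an epididymal ribonuclease of the first part of the caput, 0.986, Lat 0.976 and Lcn8, a lipocalin of the same region, 0.973. Of the members that could be ranked, Cd3e had the highest r with Zap70 (0.824) and Lck the lowest (-0.788). The mean of Cd3d, Cd3e and Cd3g had no close match, the highest r being 0.841 for Adck1, a mitochondrial kinase.

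Whether the absence of microbes altered these genes was examined in the 3 tissues of GF mice. In caput Zap70 was at 98.76, 90.72, 97.65, 96.37, 86.92 and 98.66 TPM in GF mice, against 74.51, 81.51, 59.05 and 72.74 TPM in SPF mice. Every GF library was above every SPF library, as 1.65% of all genes were, and Zap70 was the only member of which this held. No member lay below SPF, where 1.88% of genes did. The log2 fold change was 0.40 (SE 0.09), and the test across all genes was not passed (limma, adjusted p = 0.0882). limma called 0 of the 4 members that passed the filter on low values, against 0.348% of all genes, and Zap70 was the 1 member with an unadjusted p below 0.05. Of the 11790 genes tested, 1984 had such a p. The ITAM adaptors of myeloid and NK cells also lay above SPF without overlap, Fcer1g at 47.4 ± 5.23 TPM in GF (SD, n = 6) and 36.9 ± 1.02 TPM in SPF (SD, n = 4), and Tyrobp at 77.0 ± 14.3 and 57.2 ± 6.21 TPM (adjusted p = 0.112 and 0.156). The 12 macrophage genes summed to 565 to 649 TPM in GF caput, against 462 to 540 TPM in SPF caput, and Hba-a2 of red cells averaged 322 and 123 TPM. Their part in the Zap70 difference was not tested. Lat, Plcg1 and Klrb1c overlapped between GF and SPF caput (adjusted p = 0.487, 0.196 and 0.764), as did Lcn8 and Rnase10 (0.440 and 0.947). The GF values of Lat lay on both sides of the SPF values. They were 44.75, 44.63, 36.67, 44.45, 20.25 and 21.2 TPM, against 22.9, 30.09, 28.39 and 24.23 TPM in SPF caput.

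In cauda and testis the members did not separate GF from SPF mice, with 1 exception. In cauda 1 member, Lck, passed the filter, at 3.29, 2.49, 2.91, 1.19 and 4.00 TPM in GF, against 3.08, 2.70, 0.97 and 4.35 TPM in SPF. It was not called (0.144% of all genes were), its unadjusted p was not below 0.05, and none of the 10 lay above or below SPF without overlap (4.90% of all genes lay above and 0.893% below). Zap70 was at 0.29, 0.68, 1.25, 0.63 and 1.93 TPM in GF cauda, too low to be tested, a log2 difference of 0.18 from SPF that was 0.017 without GF replicate 6 and 0.31 without GF replicate 1. Whether the difference from SPF was another in caput than in cauda was tested in 1 fit of both regions. That fit took caput and cauda libraries as independent, because the labels do not tie them to animals. For Zap70, the difference in cauda minus that in caput was -0.22 (SE 0.24, limma interaction, adjusted p = 0.737), and 11 of 12481 genes passed. Zap70 is low in cauda, where log2(TPM + 1) understates fold changes, so this result cannot decide whether the regions differ. In testis 0 of the 4 members tested were called (0.0423% of all genes were), 1 having an unadjusted p below 0.05, as did 1917 of 14177 genes. That member was Cd3e, at 0.49, 0.95, 0.76 and 0.63 TPM in GF testes, against 1.65, 1.3 and 1.8 TPM in SPF testes, a log2 fold change of -0.60 (SE 0.12, adjusted p = 0.316). All GF testes lay below all SPF testes for it, as 9.40% of genes did. Zap70 overlapped in testis, with a log2 fold change of 0.57 (SE 0.26, adjusted p = 0.381).

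In F1 caput Zap70 lay below SPF and 3 receptor chains above it without overlap, and no member passed the test across all genes. Zap70 had 28.49, 51.23 and 57.81 TPM in F1 caput, against 74.51, 81.51, 59.05 and 72.74 TPM in SPF caput. The groups did not overlap, as for 4.94% of genes that lay below SPF, and the log2 fold change was -0.69 (SE 0.23, limma, adjusted p = 0.0998). With all caput groups of the first set in 1 fit the same difference passed (adjusted p = 0.0230), and without F1 replicate 1 it was -0.39. Cd3e had 3.10, 3.05 and 3.04 TPM in F1 caput, against 1.45 to 2.83 TPM in SPF caput. Cd3g had 0.72, 3.00 and 0.75 TPM, against 0.18 to 0.53 TPM, and Cd247 1.53, 1.55 and 0.57 TPM, against 0.15 to 0.44 TPM. These 3 chains lay above SPF without overlap, where 15.1% of all genes did, and limma called 0 of the 4 members tested, against 2.72% of all genes. Of these 4, Zap70 and Cd3e had an unadjusted p below 0.05, as did 3478 of the 12041 genes tested.

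Signalling genes outside the 10 were called in F1 caput. Plcg1 rose to 96.0 ± 6.62 TPM in F1 (SD, n = 3), against 57.3 ± 11.9 TPM in SPF (SD, n = 4), a log2 fold change of 0.75 (limma, adjusted p = 0.0397). It was 1 of 12 tested partners called, with none called lower. Of all genes tested there 2.72% were called, 258 higher and 70 lower. The transcription factor gene Tcf7 rose by a log2 fold change of 0.59 (adjusted p = 0.0425), 1 of 3 tested T cell genes, and Fcer1g by 0.60 (adjusted p = 0.0229), 1 of 2 tested ITAM adaptors. The median log2 fold change of the 12 partners was 0.23 and that of all genes 0.11. In the same libraries Hba-a2 averaged 645 TPM in F1 and 123 TPM in SPF, the 12 macrophage genes summed to 675 to 713 TPM, against 462 to 540 TPM in SPF, with 3 of the 11 tested called higher, and Lcn8 had 15326 to 19891 TPM, against 21585 to 31629 TPM. Called higher as well were 2 of 2 red cell genes and 1 of 14 epithelial genes. Rnase10, Cst8 and Epcam overlapped between F1 and SPF caput (adjusted p = 0.525, 0.922 and 0.332). Whether blood, macrophage content or the stretch of caput taken bears on the member values was not tested.

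In F1 cauda Cd3g had 1.71, 3.03 and 2.09 TPM, against 0.71, 0.93, 1.07 and 1.42 TPM in SPF cauda. It was the only member above SPF without overlap, where 17.5% of genes were, and none lay below, where 2.44% of genes were. limma called 0 of the 2 members tested (0.188% of all genes), Cd3g having an unadjusted p below 0.05 and an adjusted p of 0.114. An unadjusted p below 0.05 was found for 2999 of all 12784 genes tested. The median of all genes was raised by 0.28 in this comparison. Zap70 had 0.97, 0.69 and 0.29 TPM in F1 cauda, within reach of the 0.53 to 0.81 TPM of SPF cauda.

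Recolonized GF mice were compared with the second SPF set. In caput Zap70 had 97.13, 66.92 and 69.10 TPM in recolonized GF, against 57.83, 39.67, 48.77, 43.26 and 55.01 TPM in SPF, a log2 fold change of 0.65 (SE 0.16, limma, adjusted p = 0.244). Zap70 and Cd8a lay above SPF without overlap, as 2.61% of genes did (2.26% lay below, among them no member), Cd8a at 0.28, 0.15 and 0.22 TPM in recolonized GF, against 0.06, 0.06, 0.10, 0.06 and 0.14 TPM in SPF. No member was called of the 3 tested (0.175% of all genes were), and Zap70 alone of them had an unadjusted p below 0.05. Over all genes 1023 of 12561 had such a p. Lat was also above SPF without overlap, at 36.3 ± 5.58 TPM in recolonized GF (SD, n = 3) and 21.3 ± 2.77 TPM in SPF (SD, n = 5, adjusted p = 0.0864), while Plcg1, Klrb1c and Lcn8 overlapped.

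In recolonized testis and cauda no member separated from SPF. limma called 0 of 6 tested members in testis (1.28% of all genes) and 0 of 1 in cauda (0.323% of all genes), none with an unadjusted p below 0.05. Over all genes 4362 of 14264 had such a p in testis and 1988 of 12683 in cauda. Zap70 had 1.21, 1.74 and 2.42 TPM in recolonized testis, against 1.82, 1.59, 2.32, 1.3 and 0.94 TPM in SPF testis, a log2 fold change of 0.11 (SE 0.18, adjusted p = 0.704). Without recolonized replicate 3 it was -0.052. In cauda it had 0.61, 0.42 and 0.75 TPM in recolonized GF, against 0.64, 0.46, 0.21, 0.22 and 0.17 TPM in SPF, a log2 difference of 0.26. In cauda none of the 10 lay above SPF (3.19% of genes did) or below (6.64%), nor in testis (1.59% and 11.8%).

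**Figure D4:**
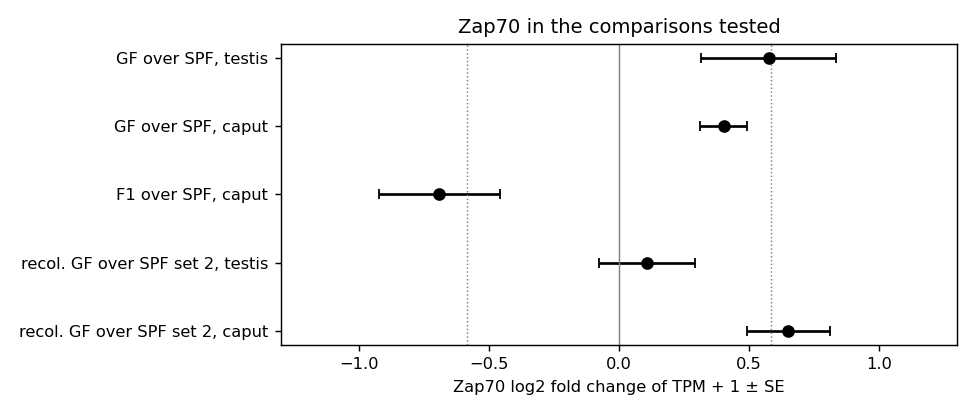
Zap70 log2 fold change of TPM + 1 (point) with its moderated SE (bar) in the 5 comparisons outside Rag2-/- in which it passed the filter on low values. Dotted lines mark a fold of 1.5 in either direction. The GF and recolonized caput points, at 0.40 and 0.65, lie right of 0 and the F1 caput point, at -0.69, lies left of it, and none passed the test across all genes.

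The 2 SPF sets did not agree for Zap70 in caput. Zap70 averaged 48.9 ± 7.65 TPM in the second set (SD, n = 5) and 72.0 ± 9.40 TPM in the first (SD, n = 4), without overlap. The F1 values lay within the span of the second set apart from replicate 1 at 28.49 TPM. In testis Cd8b1 averaged 2.63 and 0.837 TPM and Cd2 1.55 and 0.547 TPM in the second and the first set, also without overlap. Cd4 in testis (0.446 and 0.913 TPM) and Cd247 in cauda (0.15 and 0.718 TPM) were lower in the second set without overlap. In all other pairs of member and tissue, among them every other member in caput, the sets overlapped. The share of all genes without overlap between the sets was not computed. The sets of animals and the times of processing cannot be told apart. Fold changes and tests were taken only within a set, and the order of group means spans both sets.

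The swollen cauda, GF replicate 4, had the highest value of all 10 members among the GF and SPF cauda libraries. Lck was at 6.88 TPM in it, with at most 4.00 TPM in the other GF cauda libraries and at most 4.35 TPM in SPF cauda. Cd2 was at 4.61 TPM, against at most 3.34 and 1.10 TPM, Cd3g at 3.94 TPM, against at most 1.75 and 1.42 TPM, and Cd4 at 3.05 TPM, against at most 1.48 and 0.95 TPM. Zap70 was at 2.08 TPM, little above the 1.93 TPM of GF replicate 6, which had the second highest GF value of 9 members. Of all genes, 37.3% were highest in this library among those libraries. Syk was at 62.1 TPM in it and Fcer1g at 1406 TPM, and the 12 macrophage genes summed to 10914 TPM, against 302 to 3600 TPM in the other GF cauda libraries. Their part in the member values was not tested.

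**Figure D5:**
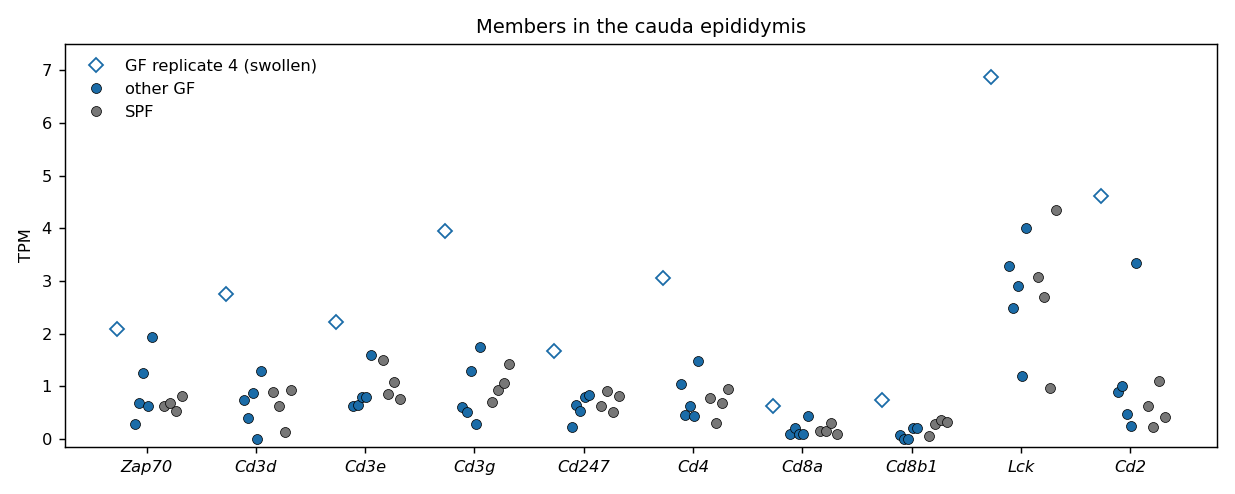
TPM of the 10 members in GF cauda replicate 4 (open diamonds), the 5 other GF cauda libraries (blue) and 4 SPF cauda libraries (grey). The diamond is the highest point for each gene, from 0.62 TPM for Cd8a to 6.88 TPM for Lck.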

How the data were processed

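The authors deposited a table of gene-level TPM, made with RSEM on mm10 from stranded poly(A) libraries, whose versions no source used here gives. RSEM shares reads among similar genes by estimate, and TPM is relative within a library, so an abundant transcript lowers the others. The 10 members and the gene lists were chosen with earlier results of these data known.

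After log2(TPM + 1), groups were compared in limma 3.58.1 (R 4.3.3), keeping genes whose mean reached 1 TPM in the libraries of a comparison. p-values were adjusted by the Benjamini-Hochberg method over all genes tested, and calls needed both 0.05 or less after adjustment and a 1.5-fold change or more. The fit was tested on simulated data. Fold changes on this scale understate those of low genes. Members under the filter are given as values only.

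All members were named. Of each list, called genes or else the highest by TPM were named, at most 4, and the 10 genes most like Zap70 by Pearson r. Others, among them Klrb1a, Csk, Lcp2, Ncr1 and Ptprc, were named for their role or after their values were seen. Alternatives were a pseudocount of 0.1, no filter, all groups of a tissue in 1 fit, centring on the median, a replicate block and leaving out each library. For the GF difference in cauda, including replicate 4 was a further alternative. The choice of 1 library left out was made after seeing the data. Between the groups of a comparison, the deviations of same-numbered libraries in no case correlated above 0.1 in every pair, so numbers were not used as pairs. Same-numbered libraries of different regions were not checked in this way.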

Additional observations from a re-analysis of the deposited data

Results flagged for a closer look

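Of 79 sets of member values by group, 8 held a library far from the others of its group. Chance gives about 1 in 20 for values that vary freely, which does not apply to the 3 sets in which all other libraries were at 0. GF cauda replicate 6 had 1.59 TPM of Cd3e, with 0.80 TPM in the next library, and 3.34 TPM of Cd2, with 1.01 TPM in the next. GF caput replicate 6 had 1.5 TPM of Cd3d, with 0.48 TPM in the next. It also had the fewest genes above 0 TPM of any caput library, 13747. In GF testes Cd3g was at 0.45 TPM in replicate 3 and Cd8a at 0.17 TPM in replicate 2, both at 0 in the others, and Cd4 was lowest, at 0.33 TPM, in replicate 2, with 0.80 TPM in the next. In the second SPF set Cd8a was at 0.04 TPM in testis replicate 4 and at 0 in the others, and Cd2 was at 0.41 TPM in cauda replicate 5, with 0.23 TPM in the next.

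The swollen GF cauda replicate 4, which entered no comparison outside the alternative fits, was above the highest SPF cauda library for each member. Zap70 was at 2.08 TPM, Cd3d at 2.75 TPM, Cd3e at 2.23 TPM, Cd3g at 3.94 TPM and Cd247 at 1.67 TPM in it. Cd4 was at 3.05 TPM, Cd8a at 0.62 TPM, Cd8b1 at 0.75 TPM, Lck at 6.88 TPM and Cd2 at 4.61 TPM. Of all genes, 47.7% were above every SPF cauda library in it.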

How the results depend on the processing

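Over 19 results on the members and 249 values under the alternatives, 243 kept their direction and side of the threshold or moved within the spread of replicates. The count of members called was 0 in 123 of 124 of these, the exception being 1 member, Zap70, in F1 caput with all groups of the tissue in 1 fit (-0.69, adjusted p = 0.0230). Adjusted p ran between 0.0230 and 0.215 over its alternatives. Of the 124 counts, 11 were of Rag2-/- caput and 12 of Rag2-/- cauda. The members were picked with their levels in those mice known, so these counts are no support. Leaving out 1 library each gave Zap70 values between -0.88 and -0.39 in F1 caput, 0.31 and 0.46 in GF caput, 0.017 and 0.31 in GF cauda, 0.48 and 0.75 in recolonized caput, 0.32 and 0.94 in GF testis, and -0.052 and 0.26 in recolonized testis. In recolonized testis the sign also turned with a replicate block (-0.076). In F1 cauda centring on the median gave -0.40 in place of -0.03, and in recolonized cauda a pseudocount of 0.1 gave 0.74 in place of 0.26. The cause was not tested. The replicate block changed no call of a member.

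Counts over all genes were less stable. Over the alternatives they ran from 0 to 5 in GF testis (6 as reported), 8 to 69 in GF caput (41), 2 to 304 in GF cauda (18), 0 to 704 in F1 caput (328), 0 to 912 in F1 cauda (24), 6 to 63 in Rag2-/- caput (19), 2 to 111 in Rag2-/- cauda (16), 1 to 789 in recolonized testis (183), 4 to 26 in recolonized caput (22) and 5 to 59 in recolonized cauda (41). The depth is unknown, and for members below 1 TPM a value of 0 is no evidence of absence.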
